A study of Mus musculus with 18 samples.

Results

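The nuclear machinery of mitochondrial RNA expression comprises the proteins that copy, transcribe, process, stabilise, degrade and translate the mitochondrial genome. It was described here by 43 genes chosen by symbol for their known function and sorted into 7 steps, and each was found once among the 55385 genes of the count table. All 43 were among the 14979 genes tested, which reached 10 counts in 2 or more of the 18 libraries. The steps were mtDNA maintenance (3 genes), transcription (4), RNA processing (6), the FASTK family with RNA granules (7), stability, tailing and decay (8), rRNA maturation (7) and translation factors (8).

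RNA came from bone marrow-derived macrophages (BMDM) of female C57BL/6J mice aged 12 weeks, which were grown in L929-conditioned medium and carried no engineered allele that the labels name. Cells received vehicle (Veh, 0.1% DMSO), 250 µM hemicholinium-3 (HC3, an inhibitor of choline uptake) or 5 µM RSM-932a (RSM, an inhibitor of choline kinase) for 24 h. They were then left naïve (M[0]) or polarized with IL-4 at 20 ng/mL (M[IL-4]) over a further 24 h, which gave 6 groups of 3 libraries. The labels name 3 mice as the source but tie no mouse to a library, so p-values measure the spread between these libraries.

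Mitochondrial DNA carries mRNAs for core subunits of the respiratory chain and ATP synthase, and the rRNAs and tRNAs needed to translate them. Every protein that acts on those RNAs is made from a nuclear gene and imported. POLRMT, with TFAM and TFB2M, transcribes both strands into long precursors, which are cut at the tRNAs, polyadenylated, bound by LRPPRC-SLIRP, and translated on a dedicated ribosome or degraded. IL-4-polarized macrophages are known for high oxidative phosphorylation.

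Libraries held 17457796 to 19522255 counts. Macrophage markers were abundant in every library (*Csf1r*, 28163 to 74484 counts, and *Adgre1*, 21514 to 55748), although many fell between groups. Of the 10 markers listed, HC3 lowered 9 and RSM 8 in naïve cells and raised 0, while 21.5% and 20.7% of all genes fell. After IL-4, HC3 lowered 8 and raised 1, beside 19.9% and 18.9% of all genes. RSM then lowered 3 and raised 2, beside 18.5% and 20.1%. IL-4 itself lowered 8 and raised 1 under Veh, beside 14.9% and 16.1%. Of 9 stromal markers tested, 4 rose with HC3 and 3 with RSM in M[0], beside 22.6% and 20.5% of all genes. In M[IL-4], 3 and 2 rose. With RSM, 1 stromal marker fell in each polarization (log2 fold changes -1.51 and -1.55). Summed stromal markers were at 1359 ± 384, 2541 ± 441 and 2074 ± 438 CPM in Veh, HC3 and RSM of M[0]. In M[IL-4] they were at 967 ± 387, 1494 ± 445 and 1368 ± 452 CPM (SD, n = 3). The sum was lowest in replicate 2 of every group. Within each replicate number and polarization it was higher with either inhibitor than with Veh. Markers of other blood cells were low but not all level. *Lck* and *Cd2*, T cell genes, both rose with RSM (*Lck* by log2 fold changes of 1.53 and 1.87, *Cd2* by 2.43 and 3.90 in M[0] and after IL-4), and *Lck* rose with HC3 (1.95 and 2.32). The summed T cell markers stayed at or under 1.83 CPM. *Ebf1*, a B cell regulator, rose with HC3 in M[0] (1.24), and *S100a8*, a neutrophil gene, with RSM in M[0] (1.67). *Cd3e*, *Ly6g* and *Flt3* had at most 5 counts in any library. The part of these shifts in the results was not tested.

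Levels are given as CPM, the counts of a gene relative to its library's total after TMM scaling (mean ± SD, n = 3 libraries). A member passed when its Benjamini-Hochberg FDR over all 14979 genes was under 0.05 in the edgeR quasi-likelihood test, and was called when its log2 fold change was also at least 1 or at most -1. Per kilobase of exon in Veh M[0], levels ran from 29.5 CPM for *Grsf1*, a protein of mitochondrial RNA granules, and 27.3 CPM for *Tufm*, the elongation factor that brings tRNAs to the ribosome, to 0.219 CPM for *Slirp*, the partner of LRPPRC. *Slirp* had 5 to 18 counts per library, and 97.8% of its exonic length lies opposite exons of *Alkbh1* and *Snw1*. Because the strand setting is not given in the sources used here, reads of such a pair cannot be told apart.

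The first question was whether blocking choline uptake or choline phosphorylation altered these genes. HC3 in M[0] raised 12 of 43 members and lowered 3, beside 22.6% and 21.5% of all genes tested. RSM in M[0] raised 13 and lowered 3, beside 20.5% and 20.7%. Of the members, 27.9% thus rose and 6.98% fell with HC3. Their median log2 fold changes were 0.13 for HC3 and 0.08 for RSM against 0.02 and 0.01 for all genes. In bulk RNA, fewer cells of a type and less RNA per cell cannot be told apart.

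After IL-4, HC3 raised 10 members and lowered 5, beside 18.9% and 19.9% of all genes. RSM raised 6 and lowered 5, beside 20.1% and 18.5%. Median log2 fold changes of the members were 0.02 for both inhibitors. Both inhibitors of a polarization were compared with the same Veh libraries, so the counts are not independent of each other. Without replicate 3, RSM left 8 members past the FDR in naïve cells. After IL-4, HC3 then left 9 and RSM 7, and RSM also left 7 without replicate 1.

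Few of these changes were large. A call with the fold threshold was reached by 1 member with HC3 in M[0], where 12.0% of all genes were called, and this was *Polg2*. With RSM in M[0] (11.6% of all genes called), HC3 in M[IL-4] (10.3%) and RSM in M[IL-4] (11.0%), edgeR called 0 members, whereas 20, 19 and 12 members had an unadjusted p under 0.05. DESeq2 called 0, 0 and 1 in these comparisons. The largest rise of any member with an inhibitor was a log2 fold change of 0.58.

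**Figure D1:**
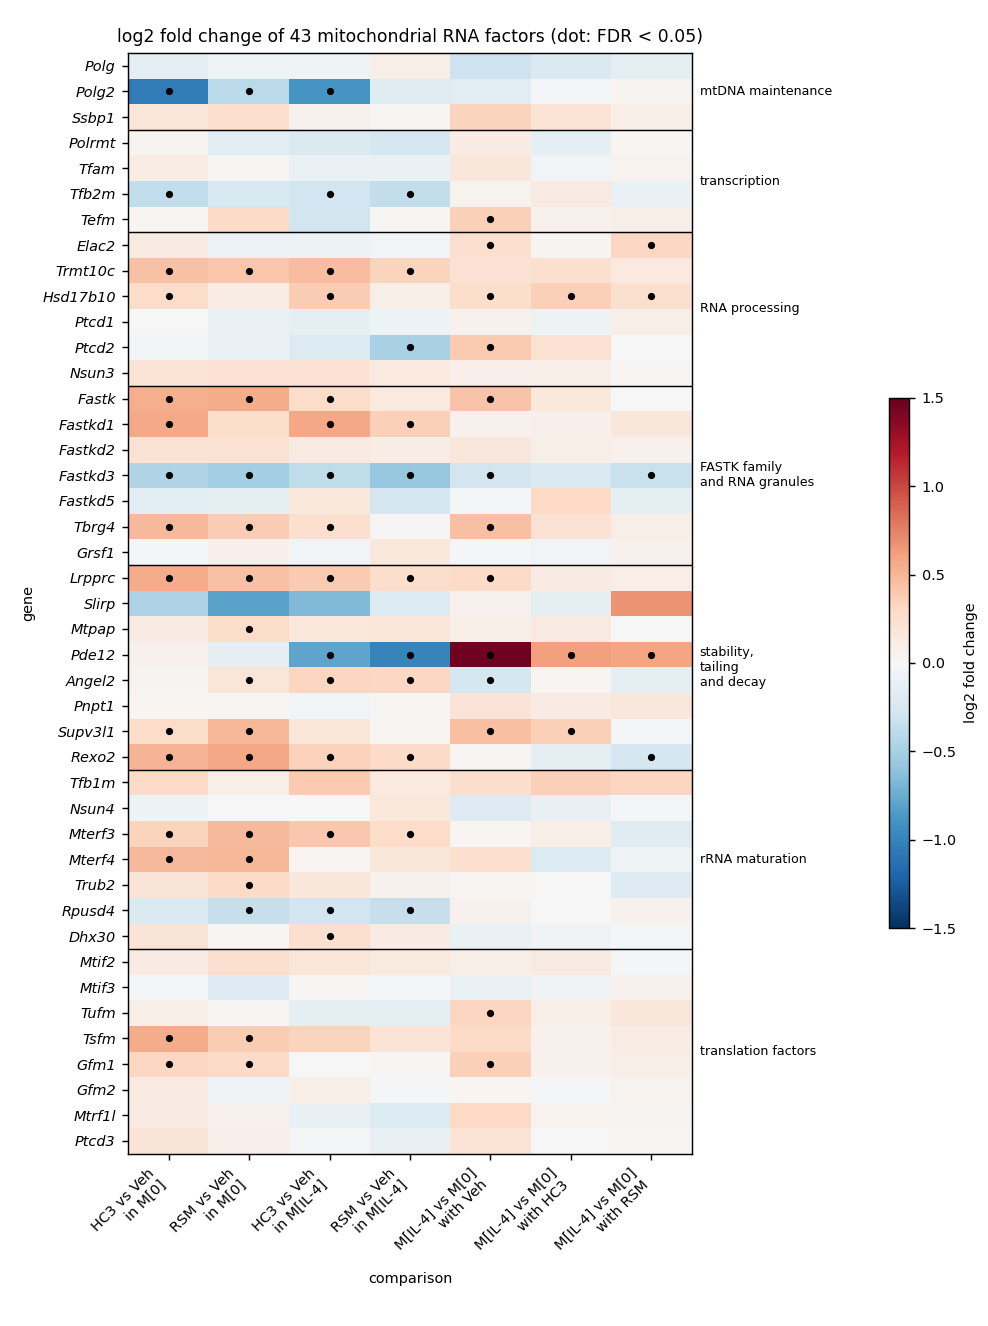
Log2 fold changes (colour) of the 43 members (rows, by step) in the 4 inhibitor comparisons with Veh and the 3 comparisons of M[IL-4] with M[0] (columns); a dot marks an FDR under 0.05 in edgeR. Most cells are pale, with *Polg2* blue under HC3 and *Pde12* dark red for IL-4 with Veh (log2 fold change 1.46).

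Transcripts made from mitochondrial DNA moved far more than the genes for the machinery. The 12 mitochondrial mRNAs tested summed to 17798 ± 1688 CPM in Veh M[0], 966 ± 71.7 with HC3 and 4901 ± 534 with RSM. In M[IL-4] the sums were 19722 ± 2904, 788 ± 45.9 and 5290 ± 983 CPM. All 12 fell with HC3 in each polarization (median log2 fold changes -3.88 and -4.75), and 11 and 12 fell with RSM (-1.69 and -1.92).

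The summed mitochondrial rRNAs went the other way, from 504 ± 57.8 CPM in Veh M[0] to 29490 ± 5456 with HC3 and to 2532 ± 343 with RSM. After IL-4 they were 580 ± 116, 27223 ± 5235 and 2115 ± 199 CPM. These libraries were made from poly-T-selected RNA, so a level of a mitochondrial RNA also depends on its poly(A) tail, and the share of level and tail cannot be told apart.

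Genes for the transcription apparatus changed little or did not pass. *Polrmt*, the mitochondrial RNA polymerase, was at 28.6, 28.3 and 30.1 CPM in Veh M[0], 28.4, 28.8 and 32.7 with HC3 and 23.9, 28.2 and 25.7 with RSM. After IL-4 it was at 37.2, 26.7 and 30.7 CPM with Veh, 30.8, 22.0 and 28.5 with HC3 and 31.3, 23.7 and 24.3 with RSM. HC3 and Veh libraries overlapped in both polarizations. RSM libraries lay below those of Veh in M[0] without passing (95% interval -0.43 to 0.10) and overlapped them in M[IL-4]. The 95% interval of its log2 fold change with HC3 was -0.22 to 0.31 in M[0] and -0.48 to 0.04 in M[IL-4].

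*Tfam*, which packages mtDNA and bends its promoters, had log2 fold changes of 0.11 with HC3 and 0.02 with RSM in naïve cells, and of -0.10 with each inhibitor after IL-4. Its 95% interval with HC3 in M[0] was -0.07 to 0.29. *Tefm*, the elongation factor, did not pass with either inhibitor (log2 fold changes -0.27 to 0.29). *Tfb2m*, which opens the promoter for POLRMT, was the 1 member of this step that fell with an inhibitor, from 20.2 ± 1.97 CPM in Veh M[0] to 15.6 ± 0.211 with HC3 (log2 fold change -0.37, edgeR FDR 0.0051). It also fell in M[IL-4] with HC3 (-0.29) and RSM (-0.37), and 48.5% of its transcript has a near-identical copy in *Gm1818*.

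**Figure D2:**
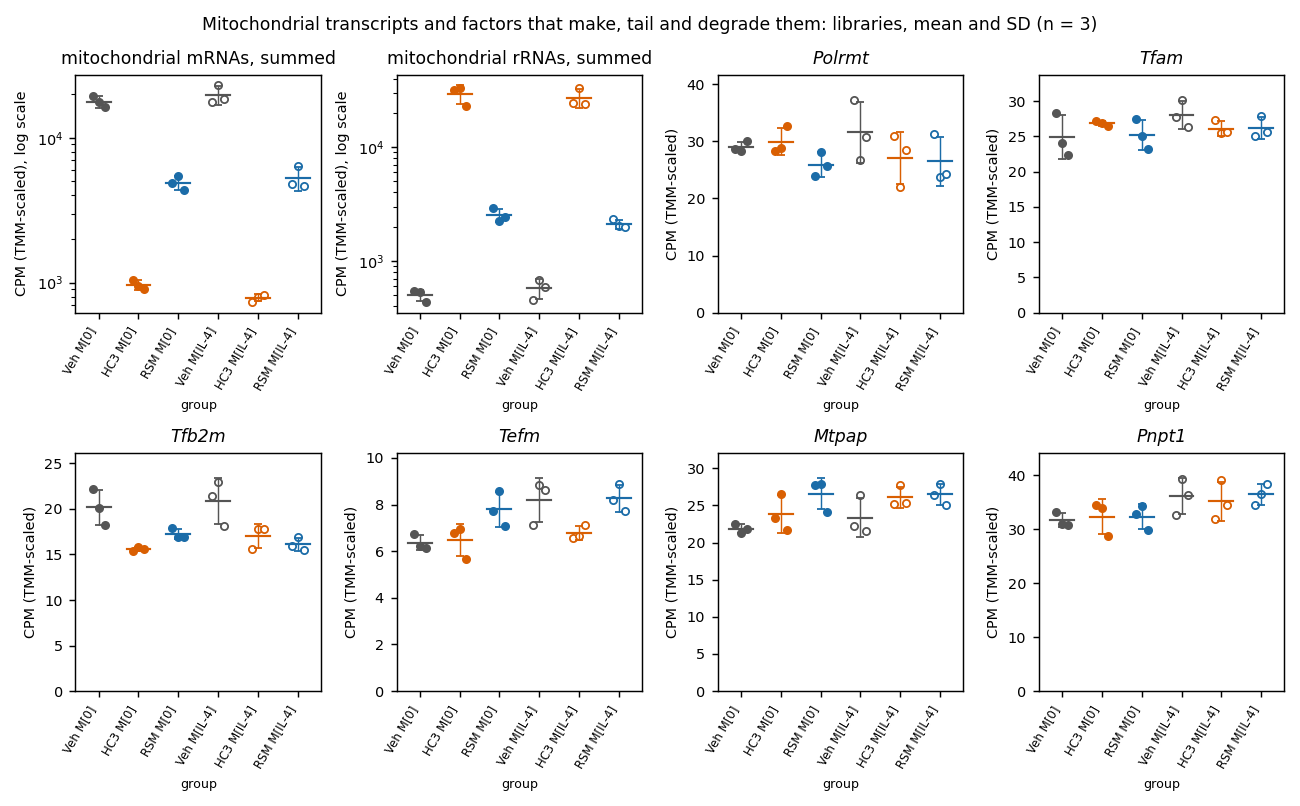
CPM in every library (points), mean (horizontal line) and SD (error bar) by group for the summed mitochondrial mRNAs and rRNAs (log axes) and for 6 factors that transcribe, tail or degrade them (linear axes from 0). Open points are M[IL-4]; the mRNA sum falls from 17798 to 966 CPM with HC3 in M[0], while *Polrmt* stays between 22.0 and 37.2 CPM in all 18 libraries.

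Of the genes for mtDNA maintenance, *Polg2* stood out. It codes for the accessory subunit of the mitochondrial DNA polymerase, which lets the enzyme make long stretches of DNA. Its level was 12.1, 9.63 and 9.25 CPM in Veh M[0], 5.03, 4.81 and 5.16 with HC3 and 7.79, 9.52 and 6.16 with RSM. After IL-4 it was 9.26, 8.24 and 9.91 CPM with Veh, 4.25, 5.15 and 5.48 with HC3 and 7.59, 8.61 and 8.04 with RSM. Every HC3 library lay below every Veh and every RSM library of its polarization, while RSM and Veh overlapped.

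*Polg2* fell with HC3 by 1.04 ± 0.159 (SE) on the log2 scale in M[0] (edgeR FDR 2.84e-05) and by 0.88 ± 0.161 in M[IL-4] (FDR 0.000221). With RSM it fell in M[0] (-0.40, FDR 0.0449), a call lost under 5 of 11 alternatives, and in M[IL-4] it had a log2 fold change of -0.18 with a 95% interval of -0.48 to 0.12. *Milr1*, the gene opposite 3.03% of the exonic length of *Polg2*, had log2 fold changes of -1.04 and -0.76 with HC3. With RSM it had -0.29 in M[0] and 0.0026 in M[IL-4]. The part of *Milr1* in the *Polg2* values was not tested. The catalytic subunit *Polg* (-0.14 and -0.05 with HC3) and *Ssbp1*, the single-stranded DNA-binding protein (0.18 and 0.06), did not pass in any comparison with Veh.

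Promoter sequence is shown for the 2 members called at the fold threshold and for the polymerase gene, each upstream of its RefSeq start (GRCm38.p6) and limited to bases that no annotated exon covers. Capitals mark the ETS-type motif CCGGAAG, which GABP and related factors are known to bind, on either strand. All lie on the minus strand, at chr10:79746582-79746831, chr11:106779538-106779787 and chr14:26669884-26670009, and are written 5′ to 3′ in the direction of the gene.
Polrmt: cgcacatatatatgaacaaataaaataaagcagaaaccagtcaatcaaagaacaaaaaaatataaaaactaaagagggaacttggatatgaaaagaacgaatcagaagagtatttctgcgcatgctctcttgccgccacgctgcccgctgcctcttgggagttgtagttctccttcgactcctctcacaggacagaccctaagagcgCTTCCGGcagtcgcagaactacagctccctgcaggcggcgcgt
Polg2: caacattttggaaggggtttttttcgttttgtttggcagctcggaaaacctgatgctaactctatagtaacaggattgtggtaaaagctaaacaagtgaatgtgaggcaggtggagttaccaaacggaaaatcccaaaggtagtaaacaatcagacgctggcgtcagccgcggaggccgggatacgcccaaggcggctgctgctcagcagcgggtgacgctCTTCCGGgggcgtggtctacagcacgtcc
Pde12: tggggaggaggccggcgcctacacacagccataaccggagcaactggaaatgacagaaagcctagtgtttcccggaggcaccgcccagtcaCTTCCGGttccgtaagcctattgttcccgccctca

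The motif ended 37 bases before the start of *Polrmt*, 23 before that of *Polg2* and 66 before that of *Pde12*. It was found in the 250 bases upstream of 17 of the 40 members with a RefSeq window (42.5%), against 6.95% of 32536 windows of all genes and 14.0% of 10544 windows of genes tested here. A member's window was the one nearest its annotated start, whereas a tested gene's was the first by coordinate. The shares are therefore not fully alike. It was present in 4 of 14 searched members that rose with an inhibitor, 3 of 6 that fell and 10 of 20 that passed in no inhibitor comparison. The letters thus occurred in members of every response.

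Other motifs were searched in the same windows on both strands. GCGCANGCG, an NRF1-type motif, was in 7.5% of the members against 11.0% of windows of tested genes, and AANATGGCG, a YY1-type motif, in 7.5% against 2.14%. TGATGNAA, a C/EBP-ATF-type motif, was in 1 member (*Fastkd2*, 2.5% against 1.99%). A STAT6-type motif (TTC and GAA separated by 4 bases) was in 1 member (*Tefm*, 2.5% against 4.78%), where it overlaps no other match. These are matches of letters, and none was tested for binding.

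Precursor RNAs are cut at tRNAs by RNase P, made of TRMT10C, HSD17B10 and a nuclease, and by ELAC2. *Trmt10c*, the methyltransferase subunit, was at 22.6, 21.1 and 17.6 CPM in Veh M[0], 29.3, 29.9 and 23.8 with HC3 and 26.0, 27.0 and 28.5 with RSM. The M[IL-4] libraries gave 23.6, 25.3 and 22.3 CPM with Veh, 30.2, 35.6 and 32.4 with HC3 and 28.9, 32.0 and 29.2 with RSM. Every inhibitor library lay above every Veh library of its polarization. The log2 fold changes with HC3 were 0.44 ± 0.104 (SE, edgeR FDR 0.00225) and 0.46 ± 0.103 (FDR 0.00137), and with RSM 0.41 ± 0.104 (FDR 0.00376) and 0.34 ± 0.103 (FDR 0.0137). The RSM calls were lost without replicate 3 (FDR 0.0998 and 0.0634), and in M[IL-4] also without replicate 2 (0.0552).

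*Hsd17b10*, a dehydrogenase that also serves as an RNase P subunit, rose with HC3, from 26.2 ± 1.73 to 31.7 ± 2.53 CPM in M[0] and from 31.3 ± 1.08 to 40.8 ± 0.237 CPM in M[IL-4] (log2 fold changes 0.28 and 0.38). Neither value with RSM (0.11 and 0.09) passed. *Elac2*, which trims the 3′ ends of tRNAs, did not pass with an inhibitor (-0.09 to 0.14). *Ptcd2*, a pentatricopeptide protein, fell with RSM in M[IL-4] (-0.49, edgeR FDR 0.00012), whereas *Ptcd1* and the methyltransferase gene *Nsun3* passed in no comparison.

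The FASTK family binds mitochondrial mRNAs and their precursors, and its genes moved in both directions. *Fastk* rose with HC3 in M[0] and M[IL-4] (log2 fold changes 0.55 and 0.28) and with RSM in M[0] (0.56), from 40.7 ± 4.86 CPM in Veh M[0] to 59.4 ± 5.68 and 59.8 ± 3.91. *Tbrg4*, which encodes FASTKD4, rose in the same comparisons (0.49, 0.25 and 0.38). *Fastkd1* rose with HC3 in M[0] and M[IL-4] (0.57 and 0.58) and with RSM in M[IL-4] (0.36). *Fastk* shares 26.1% of its exonic length with *Slc4a2* on the opposite strand.

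*Fastkd3* was the 1 member that fell in all 4 inhibitor comparisons. It was at 21.6, 20.6 and 20.3 CPM in Veh M[0], 17.5, 13.9 and 14.4 with HC3 and 14.5, 14.8 and 14.6 with RSM. The M[IL-4] libraries gave 15.8, 18.6 and 17.2 CPM with Veh, 14.5, 12.7 and 12.3 with HC3 and 11.6 in each RSM library. All inhibitor libraries lay below those of Veh. Log2 fold changes were -0.45 ± 0.0988 and -0.39 ± 0.101 with HC3 (edgeR FDR 0.0011 and 0.00493) and -0.51 ± 0.0990 and -0.57 ± 0.101 with RSM (FDR 0.000368 and 0.000178). In M[IL-4], the HC3 call was lost without replicate 2 (FDR 0.0904) or replicate 3 (0.131).

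*Fastkd2*, *Fastkd5* and *Grsf1* passed in no comparison. *Fastkd5* shares 65.2% of its exonic length with *Ubox5* on the same strand. *Grsf1*, at 89.5 ± 4.73 CPM in Veh M[0], had log2 fold changes of -0.02 to 0.15 with the inhibitors.

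Of the 8 genes that protect, tail or degrade the mRNAs, 3 rose with HC3 and 5 with RSM in M[0], where 22.6% and 20.5% of all genes rose. After IL-4, 3 rose and 1 fell with each inhibitor, beside 18.9% and 19.9% of all genes with HC3 and 20.1% and 18.5% with RSM. *Lrpprc*, whose protein holds mitochondrial mRNAs in a stable, polyadenylated pool, was at 84.3, 74.9 and 78.2 CPM in Veh M[0], 120.5, 118 and 109.9 with HC3 and 109.6, 109 and 104 with RSM. In M[IL-4] it was at 97.8, 97.8 and 93.6 CPM with Veh (mean 96.4 ± 2.46). HC3 libraries of M[IL-4] were at 119.6, 134.4 and 124.5 CPM (126 ± 7.54) and RSM libraries at 113.5, 116.9 and 116.0 CPM (115 ± 1.74). No inhibitor library fell into the range of Veh. The log2 fold changes with HC3 were 0.55 ± 0.0596 and 0.39 ± 0.0592 (edgeR FDR 4.32e-07 and 3.39e-05), and with RSM 0.44 ± 0.0596 and 0.26 ± 0.0592 (FDR 7.19e-06 and 0.00166). The last of these calls was lost without replicate 3 (FDR 0.0705).

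*Rexo2*, an exonuclease that clears short RNA fragments, was at 56.5, 59.2 and 57.5 CPM in Veh M[0], 84.9, 79.9 and 81.5 with HC3 and 88.9, 81.6 and 87.5 with RSM. In M[IL-4] it was at 54.3, 59.6 and 63.2 CPM with Veh, 74.0, 72.8 and 77.6 with HC3 and 77.1, 70.1 and 69.3 with RSM. The groups did not overlap, with log2 fold changes of 0.51 ± 0.0641 and 0.34 ± 0.0643 with HC3 and 0.58 ± 0.0641 and 0.29 ± 0.0642 with RSM. The edgeR FDR lay between 7.03e-07 and 0.0013, and without replicate 1 the call for RSM in M[IL-4] was lost (FDR 0.0501).

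*Supv3l1*, the helicase that unwinds RNA for degradation, was at 14.5, 13.5 and 12.2 CPM in Veh M[0], 15.1, 16.8 and 16.7 with HC3 and 21.8, 16.8 and 18.2 with RSM. Among M[IL-4] libraries it stood at 17.5, 18.6 and 18.9 CPM with Veh, 20.4, 21.5 and 20.6 with HC3 and 18.7, 18.7 and 18.6 with RSM. It rose in M[0] with HC3 (log2 fold change 0.28 ± 0.0986, edgeR FDR 0.0278) and RSM (0.50 ± 0.0979, FDR 0.000414). The HC3 call was lost without replicate 2 (FDR 0.157) or 3 (0.345), with no count filter and with only the compared groups. In M[IL-4], HC3 libraries lay above Veh without passing (0.18, FDR 0.142), and RSM gave 0.02.

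Its partner *Pnpt1*, the polynucleotide phosphorylase, was at 31.6 ± 1.28 to 36.5 ± 1.89 CPM over the groups and did not pass (log2 fold changes -0.04 to 0.03 with the inhibitors). *Mtpap*, the mitochondrial poly(A) polymerase, rose with RSM in M[0] alone among these comparisons (0.28, edgeR FDR 0.026), and with HC3 in M[0] its 95% interval was -0.07 to 0.31. *Angel2*, a phosphatase-family relative of deadenylases, rose with RSM in M[0] (0.18) and with HC3 and RSM in M[IL-4] (0.33 and 0.31). *Slirp* had log2 fold changes of -0.80 to -0.20, none of which passed at its low counts.

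*Pde12*, which codes for the mitochondrial deadenylase that removes poly(A) tails, gave the widest spread of any member. It was at 27.8, 30.1 and 31.9 CPM in Veh M[0], 31.5, 30.8 and 31.3 with HC3 and 26.9, 25.7 and 29.5 with RSM. Among M[IL-4] libraries it stood at 70.5, 89.5 and 87.5 CPM with Veh, 50.8, 40.6 and 51.4 with HC3 and 41.7, 41.3 and 40.7 with RSM. The M[0] groups overlapped in both inhibitor comparisons, whereas in M[IL-4] every inhibitor library lay below every Veh library.

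In M[IL-4], *Pde12* fell with HC3 by 0.79 ± 0.0949 on the log2 scale (edgeR FDR 1.95e-06) and with RSM by 1.00 ± 0.0954 (FDR 9.96e-08), the latter just short of the fold threshold. In M[0] the log2 fold changes were 0.06 (95% interval -0.14 to 0.25) and -0.13 (-0.32 to 0.07). *Arf4*, which lies opposite 6.82% of its exonic length, had log2 fold changes of 0.15 and 0.16 in M[IL-4], neither past the FDR.

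**Figure D3:**
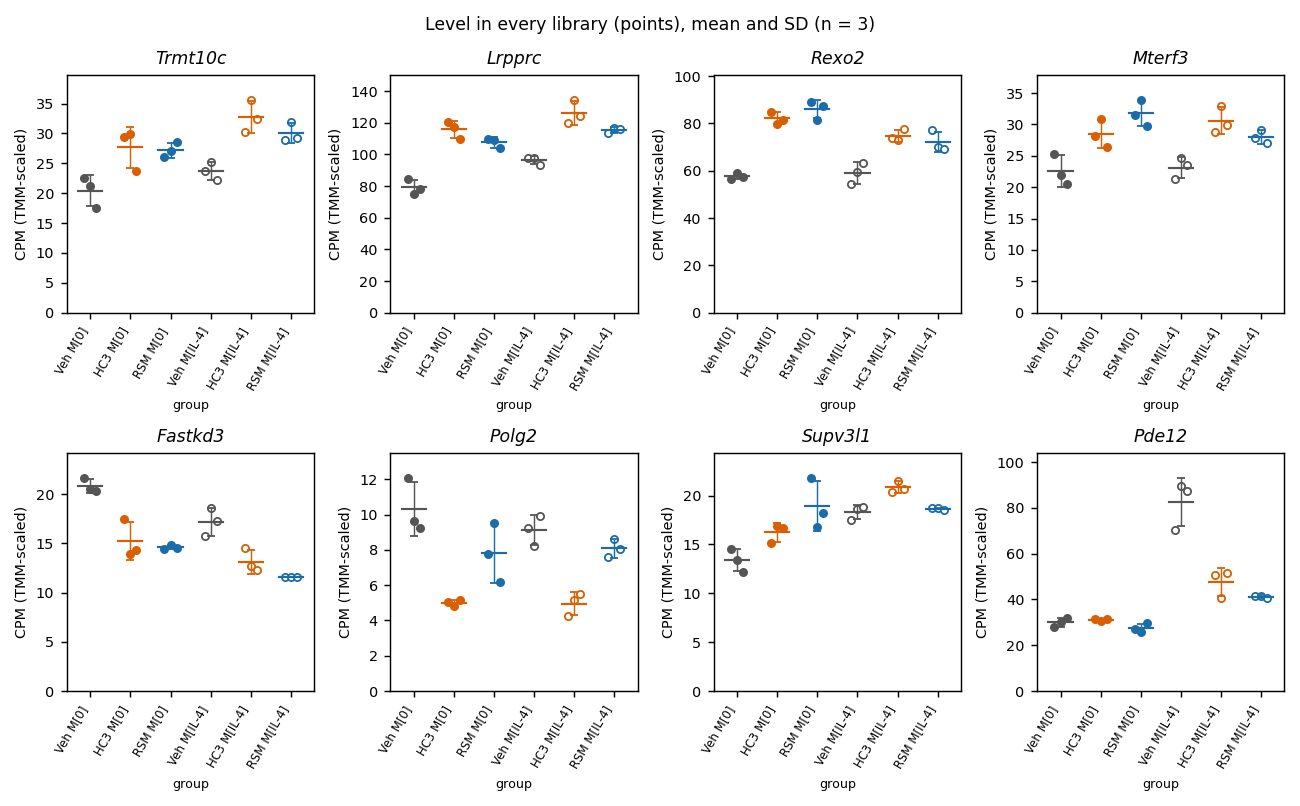
CPM in every library (points), mean (horizontal line) and SD (error bar), by group, for 8 members described by library in the text; axes start at 0 and open points are M[IL-4]. *Trmt10c*, *Lrpprc*, *Rexo2* and *Mterf3* sit higher with either inhibitor, *Fastkd3* sits lower, *Polg2* is lowest with HC3, and *Pde12* reaches 70.5 to 89.5 CPM in Veh M[IL-4] and no more than 51.4 CPM elsewhere.

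Mitochondrial rRNAs need base modification and assembly into ribosomal subunits. *Mterf3*, which is required for assembly of the large subunit, was at 25.3, 22.0 and 20.4 CPM in Veh M[0], 28.1, 30.9 and 26.4 with HC3 and 31.6, 33.9 and 29.8 with RSM. In M[IL-4] it was at 21.3, 24.7 and 23.5 CPM with Veh, 28.8, 33.0 and 30.0 with HC3 and 27.9, 29.2 and 27.0 with RSM. Inhibitor and Veh libraries did not overlap. The log2 fold changes were 0.33 ± 0.0931 and 0.40 ± 0.0930 with HC3 (edgeR FDR 0.00678 and 0.00188) and 0.49 ± 0.0928 and 0.28 ± 0.0930 with RSM (FDR 0.000289 and 0.0242).

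2 of those *Mterf3* calls did not hold when single replicates were left out. With HC3 in M[0] the FDR was 0.102 without replicate 2 and 0.0753 without replicate 3, and with RSM in M[IL-4] it was 0.0592 to 0.141 when any 1 replicate was left out. *Mterf4*, which recruits the rRNA methyltransferase NSUN4, rose with both inhibitors in M[0] (0.49 and 0.49) and had 0.02 and 0.17 in M[IL-4], and 35.2% of its exonic length lies opposite *Sned1*. *Nsun4* itself passed in no comparison.

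*Rpusd4*, a pseudouridine synthase, fell with RSM in both polarizations (log2 fold change -0.35 in each) and with HC3 in M[IL-4] (-0.29), from 23.7 ± 1.76 to 18.6 ± 1.90 CPM for RSM in M[0]. *Trub2*, another pseudouridine synthase, rose with RSM in M[0] (0.28), and *Dhx30*, an RNA helicase of the granules, rose with HC3 in M[IL-4] (0.24). *Tfb1m*, the dimethyltransferase of the small-subunit rRNA, passed in no comparison at 4.64 ± 0.804 CPM in Veh M[0].

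Among translation factors, *Tsfm*, the exchange factor for TUFM, rose in M[0] with HC3 (log2 fold change 0.56) and with RSM (0.38), where libraries overlapped those of Veh. *Avil*, which lies opposite 5.68% of the exonic length of *Tsfm*, rose by log2 fold changes of 5.46 and 5.34 in these comparisons and of 6.54 and 6.22 after IL-4, and its part in the *Tsfm* values was not tested. *Gfm1*, the translocase of elongation, rose in M[0] from 44.5 ± 2.75 CPM, reaching 55.1 ± 2.45 with HC3 and 54.1 ± 1.66 with RSM (0.31 and 0.28), and had 0.01 and 0.02 in M[IL-4]. Neither gene passed with an inhibitor in M[IL-4]. *Mtif2*, *Mtif3*, *Tufm*, *Gfm2*, *Mtrf1l* and *Ptcd3* passed in no inhibitor comparison, and 77.5% of the *Tufm* transcript has a near-identical copy in *Gm9755*.

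Over the 4 inhibitor comparisons, 16 members rose in at least 1, 6 fell in at least 1, and 0 did both. The 21 members that passed in none made up 48.8% of the 43, beside 36.0% of all genes. *Trmt10c*, *Lrpprc*, *Rexo2* and *Mterf3* passed upward in all 4 (9.30% of members, beside 9.59% of all genes), and *Fastkd3* downward (2.33%, beside 9.34%). These tallies join comparisons that share Veh libraries, and are given as descriptions.

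The next question was how IL-4 polarization altered the machinery with and without each inhibitor. With Veh, 11 members rose and 2 fell, beside 16.1% and 14.9% of all genes, and the members' median log2 fold change was 0.12. With HC3, 3 rose and 0 fell, beside 7.22% and 7.48%, although 8 members had an unadjusted p under 0.05 and DESeq2 gave 3 in all. With RSM, 3 rose and 2 fell, beside 8.79% and 6.74%. Without replicate 3, 6, 1 and 1 members passed with Veh, HC3 and RSM, without replicate 2 RSM gave 2, and a block for replicate number within polarization gave 8 for HC3.

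*Pde12* was the 1 member called for IL-4 with Veh, where 6.66% of all genes were called. With HC3 (3.97% of all genes called) and RSM (4.26%), edgeR and DESeq2 each called 0 members, and 8 and 7 members had an unadjusted p under 0.05. *Pde12* rose with IL-4 in all 3 backgrounds, with log2 fold changes of 1.46 ± 0.0975 with Veh (edgeR FDR 1.62e-09), 0.61 ± 0.0973 with HC3 (FDR 0.000194) and 0.59 ± 0.0982 with RSM (FDR 0.000228).

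Other members that rose with IL-4 under Veh covered most steps. They were *Tefm* (log2 fold change 0.36), *Elac2* (0.26), *Hsd17b10* (0.26), *Ptcd2* (0.39), *Fastk* (0.42), *Tbrg4* (0.45), *Lrpprc* (0.28), *Supv3l1* (0.46), *Tufm* (0.32) and *Gfm1* (0.36). *Fastkd3* (-0.28) and *Angel2* (-0.26) fell. No member of mtDNA maintenance or rRNA maturation passed for IL-4.

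*Hsd17b10* passed in all 3 backgrounds (0.26, 0.36 and 0.24 with Veh, HC3 and RSM). *Supv3l1* rose with HC3 (0.36) and had -0.02 with RSM, and *Elac2* rose with RSM (0.31). With RSM, *Fastkd3* (-0.33) and *Rexo2* (-0.25) fell with IL-4. The call of *Fastkd3* for IL-4 was lost under 4 alternatives with Veh and 3 with RSM. Without replicate 3, *Supv3l1* with Veh (FDR 0.107) and *Rexo2* with RSM (0.232) missed the threshold, and *Supv3l1* with HC3 missed it when any 1 replicate was left out (0.0528 to 0.162).

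**Figure D4:**
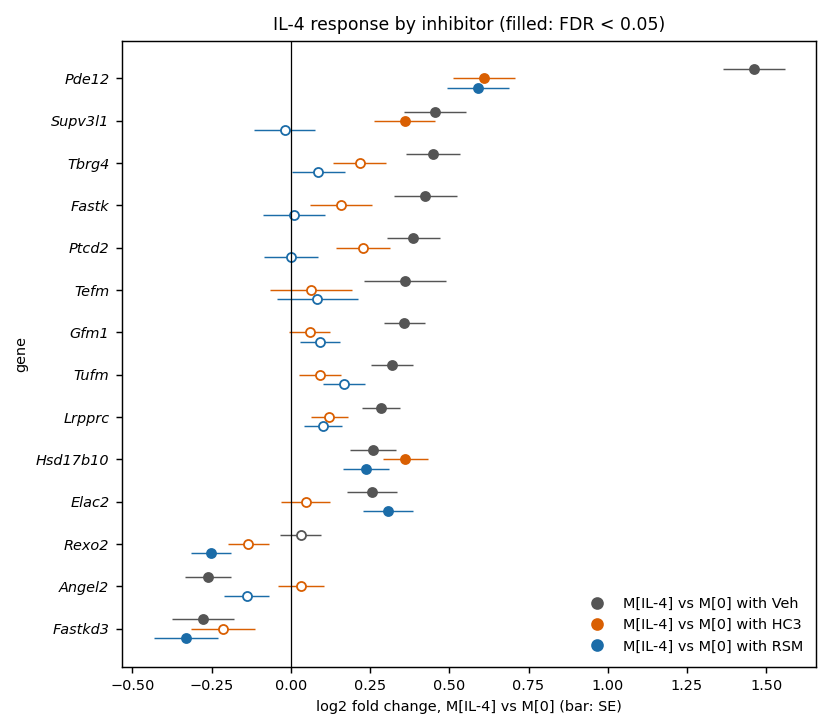
Log2 fold change of M[IL-4] against M[0] (point) with its SE (bar) for the 14 members that passed with Veh, HC3 or RSM; filled points have an FDR under 0.05 in edgeR. *Pde12* lies at 1.46 with Veh and at 0.61 and 0.59 with HC3 and RSM, and *Fastkd3* lies left of 0 in all 3.

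A direct test of the difference between IL-4 responses is the interaction term. For HC3, 1 member passed, beside 6.48% of all genes, and this was *Pde12* (-0.85 ± 0.137, edgeR FDR 0.000804). For RSM, 2 passed, beside 9.19% of all genes, namely *Pde12* (-0.87 ± 0.138, FDR 0.00039) and *Supv3l1* (-0.48 ± 0.137, FDR 0.0351). With the fold threshold, 1.24% and 2.14% of all genes were called, and edgeR and DESeq2 called 0 members, of which 5 and 8 had an unadjusted p under 0.05. *Gfm1*, *Tbrg4* and *Fastk* had interaction terms of -0.23 to -0.41 that did not pass.

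Both *Pde12* terms missed the threshold without replicate 3 (FDR 0.0608 for HC3 and 0.0561 for RSM), at values of -0.91 and -0.80. The *Supv3l1* term missed it when any 1 replicate was left out (FDR 0.0826 to 0.424), with no count filter and with only the compared groups. With a block for replicate number within each polarization, 5 members passed for HC3 and 7 for RSM.

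HC3 and RSM were last compared with each other, at 1 dose each. In M[0], 1 member passed, beside 13.6% of all genes, and in M[IL-4] 3 passed, beside 13.0%. *Polg2* was lower with HC3 in M[0] (log2 fold change -0.64 ± 0.160, edgeR FDR 0.0101) and M[IL-4] (-0.70 ± 0.161, FDR 0.00575). *Hsd17b10* (0.30, FDR 0.0084) and *Ptcd2* (0.29, FDR 0.029) were higher with HC3 in M[IL-4]. With the fold threshold, 3.04% and 2.80% of all genes were called, and edgeR and DESeq2 called 0 members, while 6 and 9 had an unadjusted p under 0.05.

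The *Polg2* difference missed the threshold without replicate 1 (FDR 0.0736) or 2 (0.154) in M[0] and without replicate 1 (0.0838) or 3 (0.0537) in M[IL-4]. With the block for replicate number within polarization, 7 members passed in M[0] and 5 in M[IL-4]. For *Lrpprc*, the 95% interval of the difference between HC3 and RSM was -0.01 to 0.22 in M[0], and for *Trmt10c* it was -0.18 to 0.23.

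Other genes of the same pathway were taken from lists chosen by function. Of 9 further genes for mtDNA maintenance, 5 rose and 2 fell with HC3 in M[0]. The same numbers passed with RSM (medians 0.47 with HC3 and 0.27 with RSM). Of all genes, 22.6% rose and 21.5% fell with HC3 in M[0], and 20.5% and 20.7% with RSM. After IL-4, 5 rose and 2 fell with HC3, beside 18.9% and 19.9% of all genes. With RSM, 3 rose and 2 fell after IL-4, beside 20.1% and 18.5%. *Dna2*, a helicase and nuclease, fell with HC3 and RSM in M[IL-4] by 1.41 and 1.79 on the log2 scale. In M[0], *Lig3*, the mitochondrial DNA ligase, rose with HC3 and RSM (0.56 and 0.66), and *Top3a*, a topoisomerase, fell (-0.66 and -0.56). Of 14 genes for rRNA maturation and ribosome assembly, 6 rose and 1 fell with HC3 and 1 rose with RSM in M[0], among them the assembly factor *Rcc1l* (0.50 and 0.36). In M[IL-4], 5 of the 14 rose and 1 fell with HC3, and 3 rose and 0 fell with RSM. These counts are read against the same shares of all genes.

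Of 10 further translation genes, 5 rose and 2 fell with HC3 in M[0] and 1 rose and 2 fell with RSM, with *Mrrf*, the recycling factor, at 0.56 and 0.42. In M[IL-4], 2 of the 10 rose and 0 fell with HC3, and 1 rose and 1 fell with RSM. Of all genes, 22.6% rose and 21.5% fell with HC3 in M[0], and 20.5% and 20.7% with RSM. After IL-4 those shares were 18.9% and 19.9% with HC3 and 20.1% and 18.5% with RSM. Of 11 genes for RNA processing and tRNA modification, 1 rose with each inhibitor in M[0], the pseudouridine synthase *Pus1* (0.53 and 0.42). In M[IL-4], 1 of the 11 rose with HC3 and 1 fell with RSM. Of 3 termination factor genes, *Mterf1b* rose with HC3 in M[0] (1.28), and 0 passed with either inhibitor in M[IL-4]. The 3 genes together were low, at 4.65 ± 0.377 CPM in Veh M[0] and 6.03 ± 0.755 with HC3. *Guf1* fell with both inhibitors in M[0] (-0.27 and -0.31).

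Larger groups of nuclear mitochondrial genes are read against all genes tested, of which 22.6% rose and 21.5% fell with HC3 and 20.5% and 20.7% with RSM in M[0]. After IL-4 those shares were 18.9% and 19.9% with HC3 and 20.1% and 18.5% with RSM, and 16.1% rose with IL-4 under Veh. Of 77 mitochondrial ribosomal protein genes tested, 25 rose and 4 fell with HC3 in M[0] and 20 rose and 4 fell with RSM. In M[IL-4] they gave 13 and 10 with HC3 and 11 and 7 with RSM. Of 76 nuclear genes for respiratory chain and ATP synthase subunits, 10 rose and 8 fell with HC3 and 5 rose and 9 fell with RSM in M[0]. After IL-4, 2 rose and 30 fell with HC3 and 2 rose and 34 fell with RSM. With IL-4 under Veh, 25 and 47 of these genes rose and 0 fell in edgeR.

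Of 10 tested regulators of nuclear mitochondrial genes, *Pprc1*, a coactivator related to PGC-1, rose with both inhibitors in M[0] (0.68 and 0.60), and *Nfe2l2*, a regulator of antioxidant genes, fell (-0.61 and -0.39). In all, 2 rose and 2 fell with HC3 in M[0], beside 22.6% and 21.5% of all genes. With RSM in M[0], 4 rose and 1 fell, beside 20.5% and 20.7%. In M[IL-4], 2 rose and 3 fell with each inhibitor, beside 18.9% and 19.9% of all genes with HC3 and 20.1% and 18.5% with RSM. *Ppargc1b*, which encodes the coactivator PGC-1β, rose with IL-4 under Veh (2.45) and fell after IL-4 with HC3 (-1.09) and RSM (-1.70). Its interaction terms were -1.58 and -1.96, and those of *Myc*, a growth regulator that also rose with IL-4 under Veh (1.52), were -1.02 and -1.04. The median log2 fold changes were 0.01, 0.14, -0.17 and -0.04 in the order HC3 and RSM in M[0], then HC3 and RSM in M[IL-4].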

How the data were processed

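RNA of 18 BMDM libraries in 6 groups of 3 was sequenced after poly-T selection. The authors' pipeline used STAR (local mode, GRCm38) on fastp-trimmed reads, and gene totals over exons came from Subread featureCounts. PCR duplicates (flagged in Picard) remain in the totals, and pairs of low mapping quality do not. The values deposited are these raw counts, and neither versions, annotation release nor strand setting are given in the sources used here. No column was left unused. Marked duplicates that are kept, and reads of overlapping or near-identical genes, can shift a count.

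Groups were taken from the labels. Symbols and exons came from the GENCODE vM21 annotation of GRCm38 and matched 55144 of 55385 genes. The quasi-likelihood test of edgeR 4.0.16 (R 4.3.3; TMM scaling) was run on the 14979 genes that reached 10 counts in 2 or more libraries, in 1 model where each group had its own term; no block was used, as none is named in the study's methods. A member passed at an FDR under 0.05 (Benjamini-Hochberg over all genes), and 11 comparisons were made. Intervals of log2 fold changes are 95% (1.96 SE). With 3 libraries against 3, an exact permutation test cannot go below p = 0.1. At this depth 3 counts correspond to 0.153 to 0.176 CPM. The 43 members and all lists were chosen with earlier results of these data known. Values of every library were given for members that passed the same way in all 4 inhibitor comparisons or were called with a log2 fold change of at least 1 in any; members past an interaction were named too, and of other lists up to 2 genes of lowest FDR with an inhibitor in M[0]. *Polrmt* values by library, *Rpusd4*, *Guf1*, *Dna2*, *Ppargc1b*, *Myc*, the marker genes and other single genes outside this rule were chosen after their values were seen.

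Alternatives were DESeq2 1.42.0, no count filter (29054 genes), filterByExpr (14466), library size scaling, the 27 mitochondrial genes left out, a replicate block, a replicate block within polarization, only the compared groups, and leaving out each replicate number. Residuals of same-numbered libraries of 1 polarization correlated at 0.110 to 0.372, above 0.1 in 18 of 18 pairs. Across polarizations 12 of 27 pairs were above 0.1, and summed stromal markers were lowest in replicate 2 of every group. Numbers were used to pair libraries in the block alternatives only. The main test and the SDs leave this pairing out, so their spread includes differences between replicate numbers. No library was a repeat of another (chi-square per gene between replicates 6.30 to 20.3, against about 1 from counting error). Steps were tested on simulated data. Promoter windows were RefSeq's (GRCm38.p6, 40 of 43 members matched), near-identical transcripts (98% over at least 100 bp) came from blastn 2.17.0, and figures from Python 3.11.15 with matplotlib 3.10.9.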

Additional observations from a re-analysis of the deposited data

Results flagged for a closer look

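The response of *Pde12* to IL-4 differed between Veh and each inhibitor in the interaction test, by -0.85 for HC3 and -0.87 for RSM on the log2 scale. *Pde12* rose with IL-4 in each of the 3 backgrounds, and libraries of M[IL-4] lay above those of M[0] in each. The response of *Supv3l1* differed between Veh and RSM by -0.48.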

How the results depend on the processing

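Across 11 alternatives, 208 of 242 counts of members stayed within 1.5 times their values, and 459 of 506 fold changes of the 8 named members kept direction and side of the threshold. 45 lost the threshold, and 2 reversed, both without replicate 1 and neither past the FDR. Without 1 replicate, *Pde12* for HC3 in M[0] ranged from -0.018 to 0.10 and *Supv3l1* for RSM in M[IL-4] from -0.0037 to 0.049.

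Leaving out 1 replicate gave 8 to 13 members for RSM and 12 to 14 for HC3 in M[0], 9 to 13 for HC3 and 7 to 8 for RSM in M[IL-4], and for IL-4 6 to 12 with Veh, 1 to 2 with HC3 and 1 to 4 with RSM. It gave 0 to 1 and 0 to 3 for HC3 against RSM in M[0] and M[IL-4], and 0 to 1 and 0 to 2 for the HC3 and RSM interactions. Called members ranged from 0 to 1 for HC3 in M[0], where *Polg2* was lost without replicate 1, and from 0 to 1 for RSM in M[IL-4], where *Pde12* was also called (1 member) by DESeq2, with no count filter and with mitochondrial genes left out. The cause was not tested, other than that fewer libraries were fitted.

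With the replicate block within polarization, members past the FDR numbered 8 for IL-4 with HC3, 7 and 5 for HC3 against RSM in M[0] and M[IL-4], and 5 and 7 for the HC3 and RSM interactions. With 1 replicate block across polarizations they were 2 for HC3 against RSM in M[0] and 3 and 5 for the interactions. No other count moved by over 1.5 times with either block. IL-4 with RSM gave 2 members with no count filter. The HC3 interaction gave 2 with DESeq2 and 2 with library size only. The RSM interaction gave 6 with DESeq2, 4 with mitochondrial genes left out and 1 with only the compared groups. Counts near 10 per library limited *Slirp*, and overlapping genes could not be resolved.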
